A study of Homo sapiens with 8 samples.

Results

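Introns that leave 1 donor and can end at either of 2 acceptors were followed here, at every spacing of the 2 acceptors except 3 nucleotides. They were taken from the authors' deposited tables of local splicing variations (LSVs), an LSV being a set of junctions that leave or enter the same exon. A member had exactly 2 junctions with an expected share each, was marked as an alternative 3' splice site and as neither an alternative 5' splice site, an exon skip nor a retained intron, and its junctions shared 1 end. No measured share was used in the choice. The rule found 2134 members among 91480 LSVs without PMA and 2146 among 91729 with PMA, 2051 of them in both tables. In every member the shared end was the donor, and members found in both tables made up 2047 acceptor pairs in 1658 genes. A further 776 LSVs without PMA and 785 with PMA also join 1 donor to 2 acceptors, but the tables mark them as alternative 5' splice sites too, which puts them outside the rule.

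The cells were JSL1, a monoclonal T lymphocyte line derived from Jurkat. The 4 groups were unstimulated control cells, unstimulated cells with hairpin RNAs against CELF2 (depleted cells below), and the same 2 kinds of cells given PMA at 20 ng/mL over 48 hours. PMA is a phorbol ester; by switching on protein kinase C it mimics part of T cell receptor signalling. The hairpins were stably integrated by lentivirus and induced with doxycycline. The sources used here do not say if doxycycline or another hairpin was used in control cells. The study asked which transcripts of T cells are targets of CELF2, a protein that binds GU-rich RNA and regulates splicing. Each group had 2 libraries of polyadenylated RNA, 8 in all, which the authors combined into 1 value per group. Values below are therefore the authors' group values, the number of reads behind them is unknown, and the spread between libraries cannot be given. In bulk RNA a change of splicing in every cell and a change in the mix of cells cannot be told apart.

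At the end of an intron the spliceosome recognises a branch point, a run of pyrimidines and the dinucleotide AG, after which the exon begins. U2AF binds the pyrimidines and the AG, SF3B the branch point, and the AG is chosen finally in the second catalytic step, often the first one downstream of the branch point. Where 2 AGs compete, the shorter junction joins the donor to the upstream (proximal) acceptor and keeps the stretch between them in the mRNA, while the longer junction joins it to the downstream (distal) acceptor and leaves that stretch out. A stretch whose length is a multiple of 3 adds or removes whole codons; any other length shifts the reading frame when it lies in coding sequence.

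The stretches of a few members show what is gained and lost. Letters were read from GENCODE 29 transcripts (GRCh38), matched to a member by gene identifier and by the lengths of both introns, and are credited to that annotation; positions are those of the authors' tables, in hg19. Capitals mark the stretch that only the shorter junction keeps. Lower case marks coding exon on either side, so the letters before the capitals are the end of the donor exon, not intron. The first 6 lie in coding sequence and were used at close to even levels, with stretches of 4 to 36 nucleotides (chr19:46274315-46274318 for DMPK, chr19:5667358-5667363 for SAFB, chr13:79928697-79928705 for RBM26, chr7:100485663-100485674 for SRRT, chr3:48719569-48719589 for NCKIPSD and chr9:135985073-135985108 for RALGDS).
DMPK: ccaccttcccatCTAGatggccccccgg
SAFB: tcctccccccagGGGCAGacgtgactgggg
RBM26: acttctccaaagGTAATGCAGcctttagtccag
SRRT: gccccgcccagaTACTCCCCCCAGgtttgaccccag
NCKIPSD: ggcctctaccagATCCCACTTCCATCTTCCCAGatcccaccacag
RALGDS: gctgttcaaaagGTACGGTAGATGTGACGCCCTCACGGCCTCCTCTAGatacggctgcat
DMPK and RALGDS end in TAG, the other 4 in CAG, and DMPK alone of the 6 has a length that is not a multiple of 3.

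The next 6 are members whose share differed between control and depleted cells. RALGAPB (chr20:37163717-37163728), ZMIZ1 (chr10:81053120-81053137) and RP11-488L18.4 (chr1:247365383-247365397) were called with PMA, and CKLF-CMTM1 (chr16:66612734-66612749), BAHD1 (chr15:40757534-40757542) and NCOA7 (chr6:126210085-126210117) had differences of the same sign with and without PMA. ZMIZ1 and RP11-488L18.4 were matched to transcripts not annotated as protein-coding and are shown without their surroundings. RALGAPB, ZMIZ1, BAHD1 and NCOA7 lie on the plus strand with CKLF-CMTM1, and RP11-488L18.4 lies on the minus strand; of the first 6, SAFB and SRRT lie on the plus strand and the others on the minus strand.
RALGAPB: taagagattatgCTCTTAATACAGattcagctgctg
ZMIZ1: GTCTGTTCCTCTTTCCAG
RP11-488L18.4: GTGTGATTTGTCCAG
CKLF-CMTM1: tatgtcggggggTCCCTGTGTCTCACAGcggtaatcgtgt
BAHD1: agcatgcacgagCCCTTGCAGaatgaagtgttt
NCOA7: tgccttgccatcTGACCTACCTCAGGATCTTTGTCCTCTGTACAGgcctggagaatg
All 6 stretches end in CAG, and that of CKLF-CMTM1, of 16 nucleotides, is the 1 of the 6 that is not a whole number of codons.

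Few of these acceptors differed between control and depleted cells by the authors' measure. A member was called where the authors' deposited table gave a posterior probability of at least 0.95 that its share changed by 20 percentage points or more. Without PMA 0 of 2134 members were called, where 0.985% of all LSVs of that table were. With PMA 4 of 2146 (0.186%) were called, against 1.87% of all LSVs. Among all LSVs of 2 junctions, 0.594% were called without and 1.13% with PMA. Tandem acceptors 3 nucleotides apart had 1 call in 400 without and 0 in 405 with PMA, and alternative 5' splice sites with 2 choices had 4 in 1999 and 7 in 1983. The latter, here and below, were LSVs of 2 donors and 1 acceptor that are marked as both kinds of alternative site. LSVs marked as alternative 5' splice sites alone were not counted. These shares stand side by side without a test. Of the 2047 pairs, 859 had the shorter junction at 95% or more in every group and 550 at 5% or less. The group shares of such pairs cannot differ by 20 points. Members were not compared with LSVs of like shares, so the low counts do not show that these acceptors answer less to depletion.

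Other thresholds gave small counts too. At a posterior probability of 0.90 there were 2 members without PMA (background 1.32%) and 6 with PMA (2.33%). At 0.99 there were 0 (0.606%) and 1 (1.18%). An expected change of 20 points or more was listed in the authors' deposited table for 9 members without PMA (0.422%, background 2.40%) and 17 with PMA (0.792%, background 3.84%), and one of 10 points or more for 21 (0.984%, background 6.29%) and 45 (2.10%, background 9.33%).

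The 4 members called with PMA kept different stretches and moved in both directions. RALGAPB encodes the beta subunit of a GTPase-activating complex for the Ral GTPases. Its shorter junction, which keeps the 12 nucleotides shown above, held 58.3% in control and 55.0% in depleted cells without PMA, and 20.3% in control and 48.3% in depleted cells with PMA. The low value was thus that of PMA-treated control cells, and the other 3 groups lay between 48.3% and 58.3%. The authors' deposited table gave an expected change of 28.60 points with PMA, with a posterior probability of 0.955, and -0.22 points without PMA.

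PARP14, a mono-ADP-ribosyltransferase linked to interferon and interleukin-4 signalling, had acceptors 159 nucleotides apart (shorter junction ending at position 122432112 of chromosome 3), and the tables mark the pair as holding a de novo junction (one found in the reads and not in the annotation given to the program), without saying which of its 2 junctions is meant. Its shorter junction held 6.7% in control and 2.8% in depleted cells without PMA, and 33.2% and 3.3% with PMA. Only PMA-treated control cells used the proximal acceptor above 10%. The authors' deposited table gave -30.66 points with PMA, with a posterior probability of 0.991, the single member above 0.99, and -0.11 points without PMA.

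ZMIZ1, a coactivator of the PIAS family that works with NOTCH1 in T cell development, was quantified with PMA alone. Its shorter junction, with a stretch of 18 nucleotides rich in pyrimidines (14 of the 16 letters before AG), held 45.3% in control and 14.1% in depleted cells. The authors' deposited table gave -31.87 points and a posterior probability of 0.971. RP11-488L18.4, a gene known by its clone name, with acceptors 15 nucleotides apart, held 56.4% and 49.4% without PMA and 61.7% and 34.5% with PMA. The authors' deposited table gave -27.81 points and a posterior probability of 0.954 with PMA, and -0.58 points without. So 3 of the 4 called members used the proximal acceptor less in depleted cells, and RALGAPB used it more.

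No member was called in both states, and whether the effect of depletion differed between states was not tested. APC and NOMO1 lay just below the threshold. APC, the scaffold that brings beta-catenin to its destruction complex, held 62.0% in control and 91.6% in depleted cells without PMA, and 91.3% and 87.5% with PMA, at acceptors 303 nucleotides apart, marked as holding a de novo junction. The authors' deposited table gave 30.03 points with a posterior probability of 0.947 without PMA. NOMO1 held 9.0% and 22.2% without and 28.2% and 58.7% with PMA, with 30.89 points and 0.945 with PMA in the authors' deposited table. NOMO1 is also marked as holding a de novo junction, and it has near-identical copies that can share its reads, so its values are uncertain.

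Some members that were not called showed differences of the same sign in both tables, which share no library. An expected change of at least 5 points in the same direction in both was listed for 8 of 2047 pairs, and in opposite directions for 1 pair. No such count was made over all LSVs, so it is not a result particular to these acceptors. These 8 genes were picked after their values were seen. The like sign in both states was a condition of the choice and is not support for an effect. CKLF-CMTM1, a readthrough of 2 chemokine-like genes, was the pair at 20 points or more in both: its shorter junction held 51.8% in control and 75.6% in depleted cells without PMA, and 41.3% and 66.4% with PMA. The authors' deposited table gave 21.04 points without PMA (posterior probability 0.695) and 25.17 points with PMA (0.861). Both depleted groups lay above both control groups.

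NCOA7, a nuclear receptor coactivator with an interferon-induced isoform, held 49.2% and 73.9% without and 49.3% and 66.7% with PMA at acceptors 33 nucleotides apart. BAHD1, a heterochromatin protein, held 18% and 36.9% without and 26.6% and 37.9% with PMA at acceptors 9 nucleotides apart. IPPK, the kinase that makes inositol hexakisphosphate, held 72.7% and 87.0% without and 79.7% and 95.8% with PMA at a distance of 62 nucleotides. In all 3 genes, too, both depleted groups lay above both control groups.

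PPP1R37, a regulator of protein phosphatase 1, and ZNF142, a zinc finger protein, had the same order. PPP1R37, which has a de novo junction, held 74.8% and 88.7% without and 71.2% and 84.4% with PMA. ZNF142 held 65.8% and 82.6% without and 64.5% and 85.8% with PMA. The order was reversed in PRICKLE4/TOMM6, at 21.6% and 12.1% without and 35.0% and 15% with PMA, where the 2 genes overlap and their reads may not be separable. ELAC1, a tRNA 3' end nuclease, held 80% and 61% without and 95.2% and 79.8% with PMA, with both depleted values below both control values. The authors' deposited table gave PPP1R37 11.09 points (posterior probability 0.189) without and 8.57 points (0.149) with PMA. In the same order it gave ZNF142 6.26 points (0.181) and 11.25 points (0.346). For PRICKLE4/TOMM6 it gave -9.30 points (0.0396) and -20.49 points (0.680), and for ELAC1 -14.75 points (0.469) and -8.85 points (0.205). The shorter junction was higher in depleted cells in 6 of the 8 pairs and lower in 2.

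**Figure D1:**
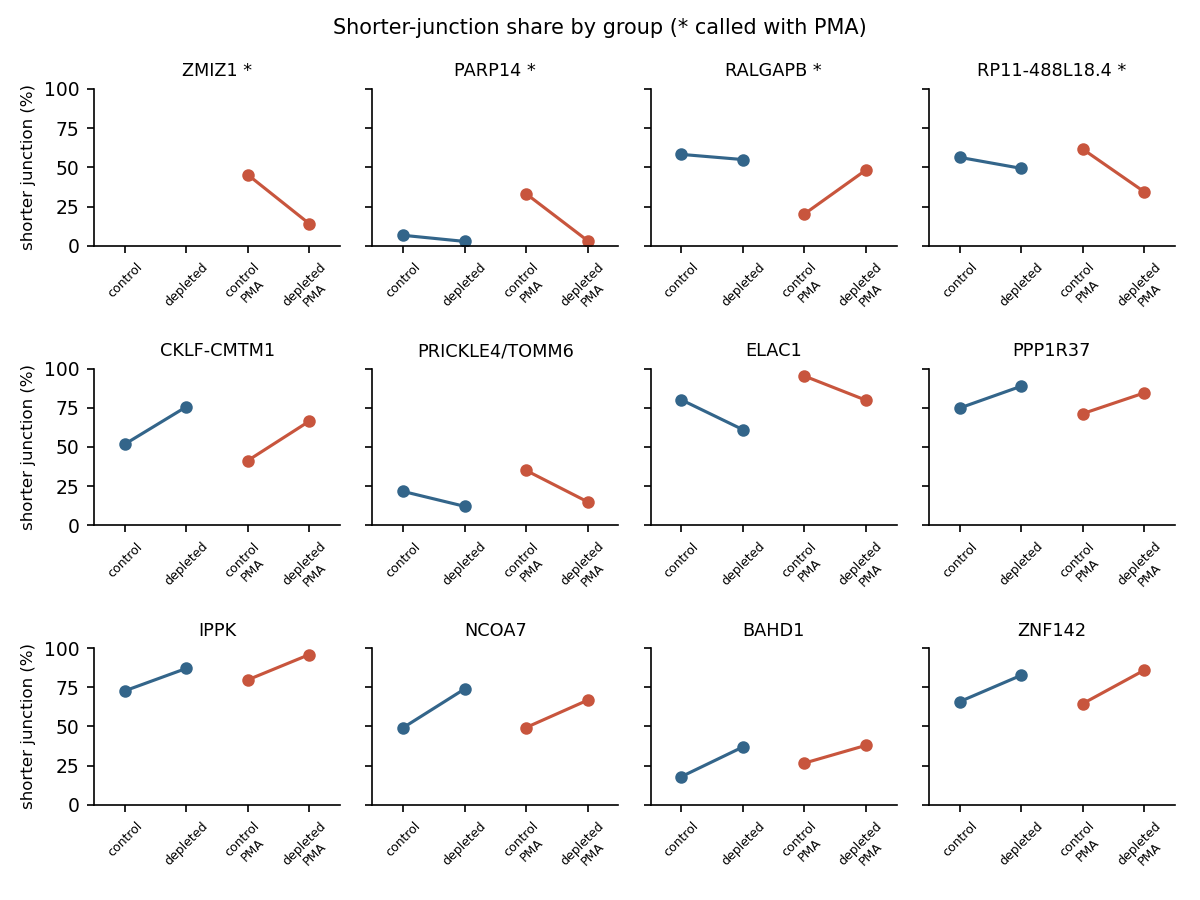
Share of the shorter junction (percent) in control and depleted cells without PMA (blue) and with PMA (red), 1 point for each group value of the authors; lines join the groups the authors compared. The 4 panels marked with an asterisk were called with PMA (ZMIZ1 has no value without PMA). In the 8 others the 2 lines slope the same way, which was a condition of their choice.

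The pairs were mostly fixed at 1 acceptor. The authors' shares run from 2.5% to 97.5%, and the shorter junction stood at the upper end in all 4 groups in 511 pairs and at the lower end in 351. It was at 95% or more in every group in 859 pairs (42%) and at 5% or less in every group in 550 (26.9%). The median range over the 4 groups was 0.2 points, and 38 pairs ranged over 20 points or more. The median share of the shorter junction was 94.3% in control and 94.7% in depleted cells, and 94.0% and 95.3% with PMA. That median moved with de novo junctions. It was 56.4% in control cells over the 824 pairs without one, and of the 1223 pairs with one the shorter junction was above 50% in all groups in 822 (67.2%).

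Which acceptor was used varied with the distance between them. At 12 nucleotides or fewer the proximal acceptor dominated: the shorter junction was above 50% in all groups in 532 of 589 pairs (90.3%) and at 95% or more in 396 (67.2%). At 4 nucleotides it was above 50% in 173 of 183 pairs (94.5%), at 5 in 106 of 112 (94.6%) and at 6 in 90 of 95 (94.7%). Pairs 1 or 2 nucleotides apart numbered 51, of which 43 held a de novo junction, and the shorter was at 95% or more in 44. Without de novo junctions the share of pairs at 12 nucleotides or fewer with the shorter junction above 50% was 81.2% (117 of 144).

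Between 10 and 15 nucleotides the preference turned. The shorter junction was above 50% in all groups in 70 of 79 pairs (88.6%) at 7 to 9 nucleotides, in 46 of 69 (66.7%) at 10 to 12, in 22 of 71 (31%) at 13 to 15 and in 20 of 86 (23.3%) at 16 to 18. Over 13 to 30 nucleotides the longer junction led: the shorter was below 50% in all groups in 271 of 428 pairs (63.3%), and its median was 3.25% in control and 3.30% in depleted cells, and 4.50% and 3.40% with PMA. Leaving out de novo junctions gave 67.3% (136 of 202), so here the order did not depend on them.

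Among wider pairs the preference was less even across kinds of junction. At 31 to 100 nucleotides the shorter junction was above 50% in all groups in 423 of 696 pairs (60.8%), with a median of 93.3% in control cells, but without de novo junctions in 181 of 355 (51%), with 169 below 50%. Above 100 and up to 300 nucleotides it was below 50% in 152 of 267 (56.9%), with a median of 5.60%, and without de novo junctions in 54 of 105 (51.4%), with a median of 29.2%. Above 300 nucleotides it was below 50% in 51 of 67 (76.1%), with a median of 2.5%, and without de novo junctions in 14 of 18 (77.8%). Over all pairs the medians of each of the 4 groups ran in the same order, from 12 nucleotides or fewer through 31 to 100, then above 100 and up to 300, then 13 to 30, to above 300. Distances of pairs ran from 1 to 9191 nucleotides with a median of 31 among members.

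**Figure D2:**
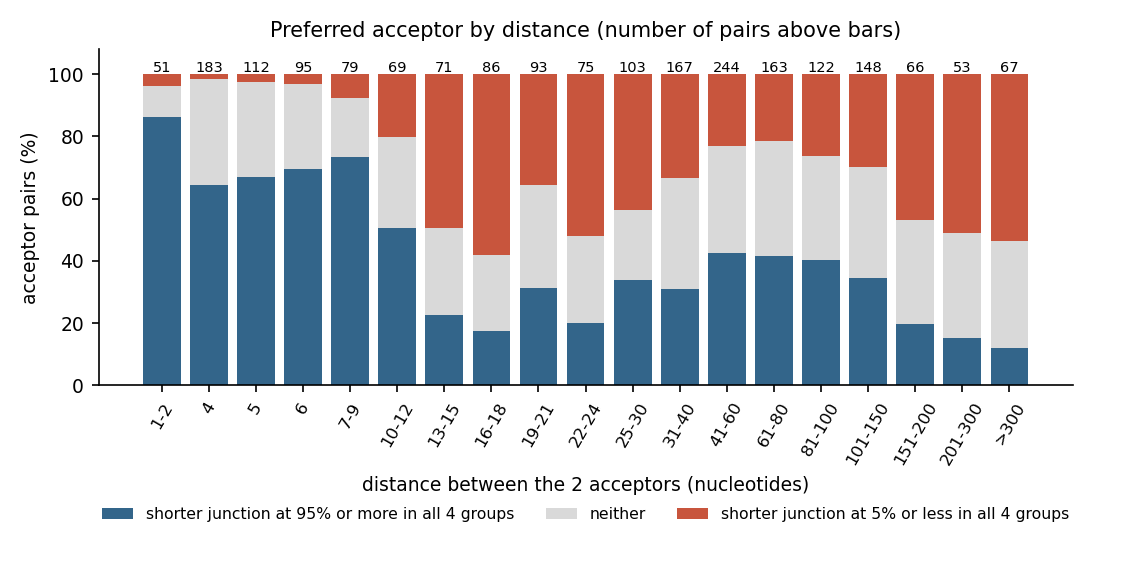
Acceptor pairs (percent) by the distance between their acceptors in nucleotides: shorter junction at 95% or more in all 4 groups (blue), at 5% or less in all 4 (red), or neither (grey), with the number of pairs above each bar. Blue falls from 73.4% at 7 to 9 nucleotides to 17.4% at 16 to 18, where red reaches 58.1%, and blue is 42.6% at 41 to 60, de novo junctions included.

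The letters of the stretches were read where a pair could be matched. Of 2047 pairs 821 (40.1%) matched a donor of GENCODE 29 by both intron lengths, 21 of them with a de novo junction, so what follows concerns mainly annotated acceptors. The stretch between the acceptors ended in AG on the transcript strand in 817 of 821 (99.5%), as a distal acceptor requires. The base before that AG was most often C. At 13 to 30 nucleotides, 62 of 138 stretches that end in CAG (44.9%) and 31 of 49 that end in TAG (63.3%) had the shorter junction at 5% or less in all groups, compared with 3 of 13 that end in AAG (23.1%). At 31 to 100 nucleotides the same was so in 77 of 264 CAG stretches (29.2%), 22 of 53 TAG stretches (41.5%) and 9 of 32 AAG stretches (28.1%), and above 100 in 32 of 90 (35.6%), 11 of 22 and 2 of 6. Medians of the shorter junction's share, averaged over the groups, did not keep 1 order: they were 79.7% for CAG and 5.43% for TAG at 31 to 100 nucleotides, and 9.09% and 47.7% above 100. Both stretches that end in GAG at 13 to 30 nucleotides stood at 95% or more. Pairs with A or G at this base were few. At 4 to 12 nucleotides 100 stretches ended in CAG and 22 in TAG, and both acceptors were used in every group in 20 and 3 of them.

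The 20 bases before the distal AG were read in stretches of 25 nucleotides or more. Their pyrimidine content had a median of 65.0% (quartiles 55.0% and 70.0%) in 151 pairs fixed at the proximal acceptor, 75% (65.0% and 80%) in 179 fixed at the distal acceptor, and 70.0% (60% and 76.2%) in 52 with both used. These 20 bases held no other AG in 107 of 151 (70.9%), 152 of 179 (84.9%) and 42 of 52 (80.8%) of these pairs, against 412 of all 520 (79.2%). No test was made of these differences.

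Both acceptors were used, at 10% or more in every group, in 130 pairs (6.35%), 1 in each of 130 genes. Among tandem acceptors 3 nucleotides apart the figure was 39.7% of 378 pairs, and among alternative 5' splice sites 9.85% of 1909, again side by side and without a test. The 130 pairs lay 2 to 1277 nucleotides apart with a median of 28.5. The shorter junction was above 50% in all groups in 64, below 50% in 48 and on both sides of it in 18. Their range over the 4 groups had a median of 9.75 points; it was under 5 points in 15 pairs and 20 points or more in 20. By distance, both acceptors were used in 6 of 183 pairs at 4 nucleotides (3.28%), 7 of 95 at 6 (7.37%), 16 of 148 at 7 to 12 (10.8%), 31 of 428 at 13 to 30 (7.24%) and 1 of 67 above 300 (1.49%). These shares depended on de novo junctions, which 143 of the 183 pairs at 4 nucleotides held. Both acceptors were used in 32 of 1223 pairs with a de novo junction (2.62%) and in 98 of 824 without (11.9%). Without de novo junctions the figure was 16.0% at 12 nucleotides or fewer, 12.4% at 13 to 30 and 11.5% at 31 to 100. Over all pairs it was 5.94% at 12 nucleotides or fewer and 6.52% above 12.

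**Figure D3:**
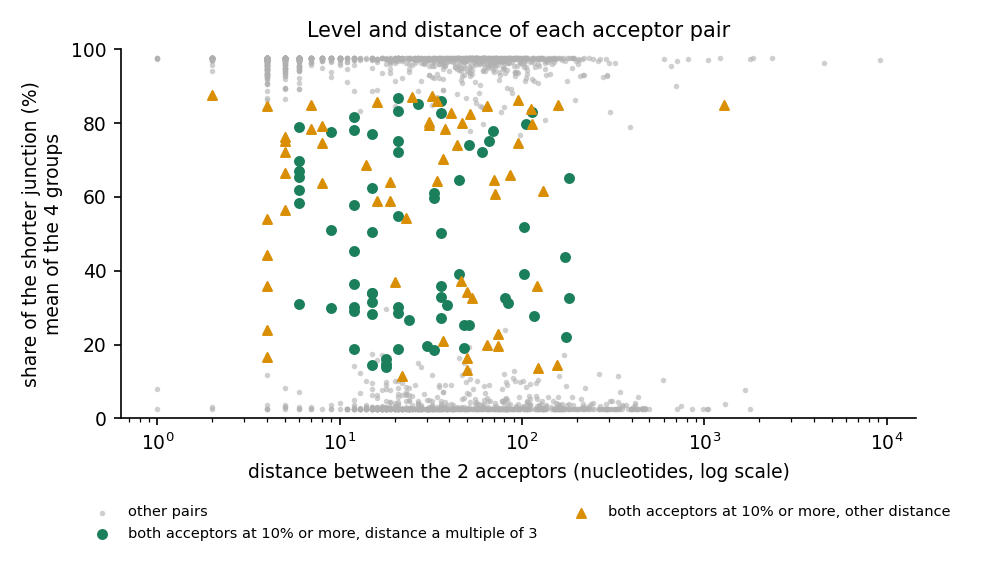
Share of the shorter junction (percent, mean of the 4 group values) against the distance between the acceptors (nucleotides, log scale), 1 point for each of 2047 pairs. Grey pairs crowd at the 2 ends of the scale, and the 130 pairs with both acceptors at 10% or more in every group are coloured by whether the distance is a multiple of 3 (green circles) or not (orange triangles).

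Near-even pairs at 6 nucleotides differed in how far they ranged over the groups. SAFB, a chromatin and RNA-binding scaffold protein, used the acceptor that adds GGGCAG at 57.4% in control and 59.3% in depleted cells, and at 58.2% and 58.4% with PMA, a range of 1.9 points. CUX1, a homeodomain transcription factor, held 61.8% and 64.1% without and 59.5% and 61.7% with PMA, a range of 4.6 points. PHF10, a subunit of the PBAF chromatin remodeller, held 65.3% and 65.2% without and 60.7% and 70.2% with PMA, a range of 9.5 points. All 3 stretches are 2 codons long.

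At 7 to 12 nucleotides the most even pairs were those of RBM26, SRRT and CHD3. RBM26, a component of the nuclear exosome targeting machinery, held 49.8% and 55.5% without and 42.9% and 55.7% with PMA. SRRT (ARS2), which links the cap-binding complex to RNA decay, held 55.4% and 63.8% without and 52.6% and 59.3% with PMA. CHD3, the ATPase of the NuRD complex, held 40.3% and 32.9% without and 37.6% and 34.8% with PMA. The depleted value was above its control in both states in RBM26 and SRRT and below it in CHD3, by 12.8 points or less over all 4 groups in each.

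At 13 to 30 nucleotides NCKIPSD, an adaptor of the actin nucleation machinery, held 53.1% and 45.3% without and 59.9% and 61.5% with PMA, and TMEM127, an endosomal membrane protein, held 51.9% and 56.7% without and 53.5% and 54.9% with PMA, the latter in its 5' UTR. At 31 to 100 nucleotides RALGDS, an exchange factor for Ral GTPases, held 50.9% and 54.9% without and 43.1% and 52.4% with PMA. ZNF746, a zinc finger repressor whose pair holds a de novo junction, held 60.3% and 61.2% without and 68.2% and 68.1% with PMA. LONRF1, a RING finger protein, held 50.7% and 62.8% without and 68.1% and 62.2% with PMA. Among these 5 pairs only LONRF1, NCKIPSD and RALGDS ranged over more than 10 points.

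Distances that are not a multiple of 3 were also found among the pairs with both acceptors used. DMPK, the myotonic dystrophy kinase, used the acceptor that keeps CTAG at 56.3% in control and 59.2% in depleted cells, and at 53.0% and 48.1% with PMA, in coding sequence, where this length shifts the frame. ZNF281 and PHF20L1 had acceptors 4 nucleotides apart in the 5' UTR and held 38.4% to 52.3% and 32.0% to 38.7%. FASN, the fatty acid synthase, had acceptors 5 nucleotides apart in its 5' UTR and held 65.4% and 72.1% without and 64.4% and 64.3% with PMA. ADAMTS10 held 49.5% to 66.1% and OPLAH 68.8% to 73.8%, both at 5 nucleotides and neither matched to coding sequence. At 1 or 2 nucleotides ARAP1 alone passed 10% for both acceptors in every group, with 85.3% to 89.7% on the shorter junction. PRKCQ reached it in 1 group. The pairs of FASN, OPLAH, ARAP1 and PRKCQ each hold a de novo junction.

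Above 100 and up to 300 nucleotides APOO, RNF216 and ATP6V1G2-DDX39B were the most even. APOO, a subunit of the mitochondrial contact site complex, held 57.7% and 38.2% without and 54.1% and 57.0% with PMA, with the 102 nucleotides in its 3' UTR. ATP6V1G2-DDX39B, a readthrough that includes the helicase gene DDX39B, held 58.8% to 64.2%. Above 300 nucleotides STK38, a kinase of the Hippo family, was the single pair with both acceptors used in every group. It has a de novo junction and held 90% and 82.7% without and 83.3% and 83.3% with PMA. ADAMTSL5 held 4.9% to 17.4%.

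The distance kept the reading frame in a larger share of pairs with both acceptors used than of all pairs, given here without a test. Among all pairs 731 (35.7%) had a distance that is a multiple of 3, and among those with both acceptors used 70 of 130 (53.8%) did. The share was 34.5% of 1839 pairs whose less used acceptor fell below 5% in some group, 33.3% of 78 at 5% to 10%, 46.3% of 67 at 10% to 20% and 61.9% of 63 at 20% or more. It was 57.1% (56 of 98) without de novo junctions and 56.4% in alternative 5' splice sites with both sites used. In this class the pairs 3 nucleotides apart are absent, which lowers its shares. They were not left out of the alternative 5' splice sites, so the 56.4% comes from an unlike set.

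The same counts were taken by where a stretch lay. A stretch counted as coding only where a transcript that keeps it is annotated as protein-coding. That annotation may itself depend on the frame, so the shares by place are not free of this choice. Among pairs matched within coding sequence 253 of 526 (48.1%) kept the frame, 51 of 74 (68.9%) with both acceptors used and 192 of 430 (44.7%) with the less used acceptor below 5% in a group. In 5' UTRs 1 of 8 pairs with both acceptors used had a distance that is a multiple of 3, and in transcripts not annotated as protein-coding 2 of 13. By distance the share was uneven. Both-used pairs at 10 to 12 nucleotides numbered 8, all at a multiple of 3, and at 13 to 15 nucleotides 8 of 9 were. It was lower at 7 to 9 nucleotides, with 3 of 8, and at 61 to 80, with 2 of 8. Over 31 to 100 nucleotides 21 of 47 (44.7%) were at a multiple of 3. Among all pairs the share was 35.4% at 7 to 9 nucleotides, 44.9% at 10 to 12 and 57.7% at 13 to 15. It was 33.1% of all pairs at 61 to 80 and 37.9% at 31 to 100. A stop codon within a stretch was not looked for.

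**Figure D4:**
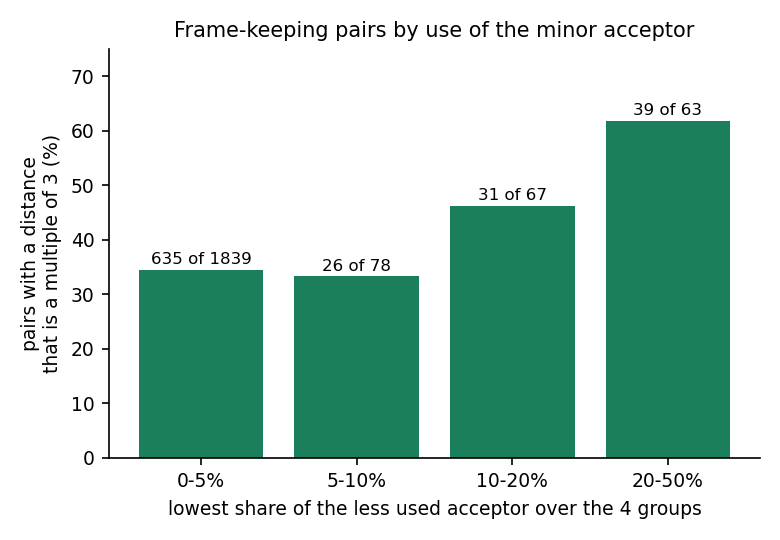
Pairs (percent) whose acceptor distance is a multiple of 3, by the lowest share of the less used acceptor over the 4 groups, with the counts above the bars. The bars stand at 34.5%, 33.3%, 46.3% and 61.9% from the least to the most even use.

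Few pairs differed alike with PMA in both kinds of cells. The difference between PMA-treated and unstimulated cells was taken in control and in depleted cells separately; the 2 tables were quantified separately by the authors and give no posterior probability for it. A difference of at least 20 points with the same sign in both was found in 1 pair, FUK, and with opposite signs in 1. At 10 points these counts were 15 and 4, and in 12 of the 15 the shorter junction was higher with PMA. The counts are out of 2047 pairs, most of them fixed at 1 acceptor. No such count was made over all LSVs, so they are not a result particular to these acceptors. FUK, fucose kinase of the salvage route to GDP-fucose, held 94.2% in control and 81.6% in depleted cells without PMA, and 71.7% and 59.3% with PMA, at acceptors 98 nucleotides apart in coding sequence. Both PMA groups lay below both unstimulated groups, and both depleted groups below their own controls.

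Among the other pairs with the largest shared difference, ALKBH8, a methyltransferase of the tRNA wobble base, was lower with PMA: 79.2% and 87.4% without and 63.5% and 74.8% with PMA, at 5 nucleotides in coding sequence. The rest were higher with PMA. SIK3, a salt-inducible kinase, held 49.0% and 59.1% without and 74.0% and 78.1% with PMA, at 180 nucleotides, which keeps the frame. LMO7, an adherens junction protein, held 16.2% and 7.5% without and 34.1% and 38.4% with PMA. HIPK2, a kinase of the p53 response, held 21.2% and 27.3% without and 35.8% and 46.7% with PMA. The stretches of LMO7 and HIPK2 are each 81 nucleotides, or 27 codons. In SIK3, LMO7 and HIPK2 both PMA groups lay above both unstimulated groups. These pairs were chosen for a PMA difference of the same sign in both kinds of cells, so that agreement follows from the choice.

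PANK4, of the pantothenate kinase family, held 56.6% and 57.8% without and 68.4% and 74.3% with PMA, and KRCC1, which has a de novo junction, 73.7% and 70.1% without and 91.7% and 83.4% with PMA. RNF216, a ubiquitin ligase, held 38.1% and 34.2% without and 56.8% and 45.5% with PMA. PFAS, an enzyme of purine synthesis, also has a de novo junction. It stood at 5.0% and 2.5% without and 20.4% and 19.9% with PMA. FKBP1B, a calcium channel regulator, had the widest difference in control cells, at 24.7% and 27.6% without and 63.5% and 40.3% with PMA. ELAC1 and NOMO1, given above, complete the 12 pairs. Of the called members, RALGAPB differed by -38.0 points with PMA in control and -6.7 points in depleted cells, and PARP14 by 26.5 and 0.5 points.

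**Figure D5:**
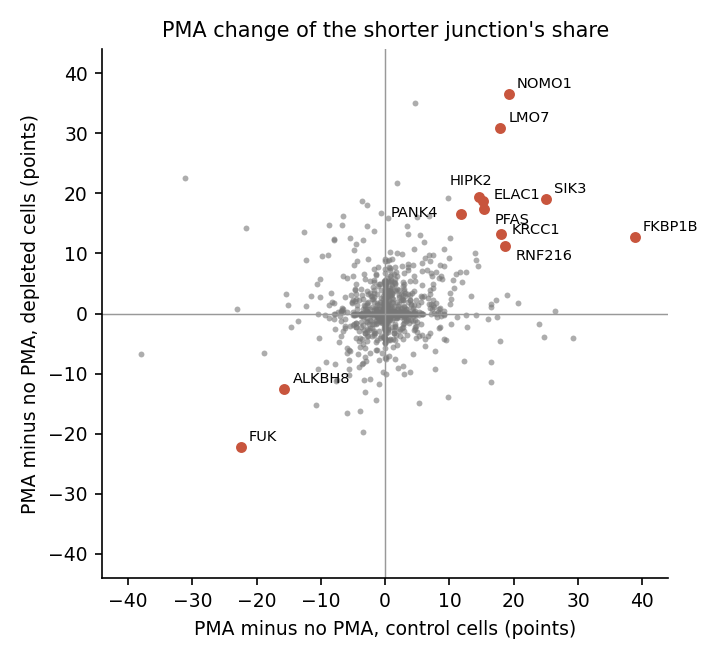
Difference of the shorter junction's share between PMA-treated and unstimulated cells (points) in control cells (horizontal axis) and depleted cells (vertical axis), 1 point for each of 2047 pairs. Most pairs lie at the centre; the 12 named pairs (red) are those not called whose smaller difference of the same sign was largest, 10 of them higher and FUK and ALKBH8 lower with PMA.

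Genes that carry out or answer this kind of splicing were followed in 5 lists, which held 57 pairs. Both acceptors were used in every group in 2 of them (3.51%), beside 6.35% of all pairs, and 0 were called in either state, beside 0 of 2134 and 0.186% of all members, so these counts say nothing particular of the lists. Of 50 genes for recognition of the 3' splice site and the second catalytic step, 12 had 15 pairs, and 1 pair had both acceptors used. That was ZRSR2, which recognises acceptors of minor introns, at 81.5% and 81.6% without and 83.0% and 85.6% with PMA, with a de novo junction. In DHX35, a helicase of the spliceosome, 1 of 3 pairs from different donors reached 10% in a group, with the shorter junction at 8.1% to 13.2%. The pairs of SF3B1, SF3B2, RBM5, DHX16 and DHX38, at 2 to 9 nucleotides, stood at 97.5% in all 4 groups, each with a de novo junction.

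Of 46 genes for proteins that bind pyrimidine-rich or GU-rich RNA, 7 had a pair, and 0 of the 7 pairs reached 10% for the less used acceptor. CELF1, the relative of CELF2, stood at 2.5% in all groups at 20 nucleotides, with a de novo junction. SRSF5, an SR protein, stood at 97.5% at 9 nucleotides, and the highest range, in CELF5, was 0.9 points. CELF2 itself had 11 LSVs without and 16 with PMA, of which 0 and 3 were called and 0 were members.

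Of 67 genes of T cell receptor and NF-kappaB signalling, 14 had 15 pairs, with a median range of 0.100 points. PRKCQ, the protein kinase C isoform of the T cell synapse and a target of PMA, was the 1 pair to reach 10%: its shorter junction held 97.3% and 97.4% without and 95% and 86.5% with PMA at 2 nucleotides, with a de novo junction. ZAP70, also with a de novo junction, stood at 2.5% in all groups, and VAV1 at 97.4% to 97.5%.

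Of 49 genes for lymphoid transcription factors, 8 had a pair. ELF2, an ETS factor, held 40.8% in control and 29.8% in depleted cells without PMA, and 43.8% and 28.8% with PMA, with both depleted groups below both control groups at a stretch of 36 nucleotides, or 12 codons. The authors' deposited table gave it -4.36 points (posterior probability 0.0670) without and -11.27 points (0.271) with PMA, so it was not called. The pairs of LEF1, TCF3 and STAT5B, each with a de novo junction, and that of ELF1 stood at 97.5% in all groups. Of 29 genes of nonsense-mediated decay and the exon junction complex, 8 had 12 pairs. NCBP1, of the nuclear cap-binding complex, held 91.7% in control and 97.5% in depleted cells without PMA, and 83.9% and 97.5% with PMA at 92 nucleotides. Both depleted values are the highest share listed, and the pair has a de novo junction. The authors' deposited table gave it 4.75 points (posterior probability 3.67e-09) without and 13.98 points (0.0472) with PMA, so it was not called. The 4 pairs of UPF1, the central helicase of decay, each had a de novo junction and stayed within 0.1 points.

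Expression is not part of the tables, so the cell type could be checked only by which genes had a quantified LSV. With and without PMA 12 of 16 T cell markers had one, among them CD3E, CD247, LCK and ZAP70, as did 2 of 9 B cell markers (BLK and CD79A), 0 of 8 myeloid markers, at most 1 of 5 erythroid and megakaryocyte markers (ITGA2B) and 0 of 7 epithelial and fibroblast markers. How far hairpins lowered CELF2 cannot be read from shares.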

How the data were processed

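Polyadenylated RNA of 8 libraries, 2 for each of 4 groups, was sequenced from TruSeq stranded libraries, per the labels. STAR 2.5.1b and hg19 are listed in the submitters' processing notes. The 2 deposited tables have, per the file headers, the form of VOILA output of MAJIQ, with its version, annotation and filters not given in the sources used here. For each junction the authors deposited an expected share (a fraction, here in percent), an expected change and a posterior probability; both libraries of a group were combined. Expected changes come from the authors' model and differ from a plain difference of shares. The tables mark de novo junctions per LSV, not per junction. No read counts were used, so depth is unknown and no interval or test of a library's spread could be made; 0 columns of single samples were left unused.

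Members were found by rule with Python 3.11.15 and pandas 2.3.3. The share of the shorter junction was taken in each group, and the same acceptor pair listed under several genes was averaged. Distance is the difference of the 2 acceptor positions. Letters and places came from GENCODE 29 transcripts by gene identifier and both intron lengths, with no conversion of coordinates. The rule was tested on a simulated table. Calls used a posterior probability of 0.95. Named pairs were every called member, the 12 largest shared PMA differences, the 3 most even pairs of each of 9 distance classes (at 1 or 2 nucleotides the third was a tie at the lowest share and is not described) and list genes reaching 10%; others are said to be chosen after their values were seen. A pair that this rule names is not reported here. Members, lists and rules were chosen with earlier results of these data known. It is not stated that replicate libraries were grown as separate cultures.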

Additional observations from a re-analysis of the deposited data

How the results depend on the processing

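The counts of called members depended on the threshold. Without PMA 0 members were called at a posterior probability of 0.95 and 0.99, 2 at 0.90, and 9 and 21 had an expected change of 20 and 10 points or more. With PMA the 4 calls became 6 at 0.90, 1 (PARP14) at 0.99, and 17 and 45 by expected change, with 3 left without de novo junctions and 3 among LSVs of both tables. RALGAPB, ZMIZ1 and RP11-488L18.4 were not called at 0.99. Pairs with both acceptors used numbered 208 at 5% and 63 at 20% in every group, and 67 on the plus and 63 on the minus strand, where the tables list members as source and target LSVs. Without de novo junctions the median share of the shorter junction in control cells was 56.4% in place of 94.3%. PMA differences of the same sign in both kinds of cells numbered 15 at 10 points and 0 at 30 points. The share of pairs 12 nucleotides or fewer apart with the shorter junction above 50% was 81.2% without de novo junctions and 82.2% among pairs matched to GENCODE 29, and that of pairs 31 to 100 apart was 51% and 52.4% in place of 60.8%; these alternatives were chosen after seeing the data. The share of both-used pairs that keep the frame ran from 46.2% to 61.9%, and from 63.5% to 75.6% in coding sequence, over the alternatives run.

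No paired analysis was possible because the tables hold 1 value per group with both libraries combined, and for the same reason no library was left out. The error is known only through the authors' posterior probability, which carries no adjustment over LSVs and says nothing of culture-to-culture spread.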
